A study of Drosophila melanogaster with 12 samples.

Results

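The cytosolic ribosomal protein genes were followed in 8 RNA libraries of Drosophila melanogaster. They were chosen by symbol alone: every gene of the deposited expression tables whose name begins with RpL or RpS and a number, with RpLP0, RpLP1, RpLP2 and RpLP0-like added. The rule found 92 genes among the 16510 rows of each table, 54 named for the large (60S) subunit and 38 for the small (40S) subunit. For 78 of them the symbol stands for the only or the more abundant gene of its protein, and the other 14 are second paralogues or assembly factors that resemble a ribosomal protein. The set was taken by name and no measured value entered the rule, though earlier results of these data were known when it was chosen.

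A ribosome carries a single copy of nearly every ribosomal protein, and the genes are therefore usually transcribed at similar, very high levels. In flies, loss of 1 copy of most of them gives the Minute phenotype of slow growth and short bristles, and the transcription factor Xrp1 mediates much of that response. A few proteins have a second gene, and in Drosophila several of these second genes are known for expression in the germ line. RpL24-like, RpL7-like and RpLP0-like are relatives of yeast proteins that help to assemble the large subunit and then leave it.

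The study set p53 mutant flies against wild type, in a postmitotic tissue and in embryos, with and without ionising radiation. Adult heads were sieved from pools of flies of 1 to 2 weeks. In heads, the groups were the p53 mutant (strain p535A-1-4) 3 h after 40 Gy, the mock-treated mutant, the wild type (strain yw) 3 h after 40 Gy and the mock-treated wild type. In embryos, which were treated at 3 to 4 h of age and taken at 4.5 to 5.5 h, the same 4 groups were sampled 1.5 h after 40 Gy or mock treatment. Each group had 1 library, so the differences could not be tested against a spread between replicates. The 2 strains may differ at many loci besides p53, and the p53 allele and the rest of the strain cannot be told apart.

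Levels are FPKM, fragments per kilobase of transcript scaled to the mapped fragments of the library. Differences are of log2(FPKM + 1), the first-named group minus the second. A gene is called higher or lower by the counting limit where its difference is at least 0.32 in size, which is a ratio of 5 to 4, and genes past 2-fold are given as well. A gene was counted in a tissue if it reached 1 FPKM in at least 1 of its 4 groups. This held for 86 of the 92 ribosomal protein genes among 10672 genes in heads, and for 90 among 10654 in embryos. In heads RpL10Aa, RpL22-like, RpL37b, RpS10a, RpS19b and RpS28-like stayed below 1 FPKM in every library, and in embryos RpL10Aa and RpS28-like did. Depth was estimated from the smallest steps of the FPKM scale as 10.48 to 13.58 M fragments in heads and 18.88 to 23.22 M in embryos, where M is 1e+06.

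The p53 transcript matched the strain labels. It was at 0.549 and 0.532 FPKM in irradiated and mock mutant heads, against 13.3 and 11.7 FPKM in irradiated and mock wild-type heads. In embryos it was at 0.340 and 0.700 FPKM in irradiated and mock mutants, against 54.5 and 25.9 FPKM in irradiated and mock wild type. The 10 neuron markers, none at 0, summed to 860 and 896 FPKM in irradiated and mock mutant heads, against 952 and 997 FPKM in irradiated and mock wild type. The 7 glia markers, none at 0, summed to 914 and 953 FPKM in irradiated and mock mutants, against 1039 and 1079 FPKM in irradiated and mock wild type.

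Ribosomal protein genes filled the top of every embryo library. They made up 23.9% of the summed FPKM in irradiated mutant, 23.4% in mock mutant, 23.1% in irradiated wild-type and 24.0% in mock wild-type embryos, and 76 or 77 of the 100 highest genes belonged to the set. In heads the share was 10.1% in irradiated mutants, 9.09% in mock mutants, 8.69% in irradiated wild type and 9.07% in mock wild type, with 47, 40, 40 and 41 of the 100 highest genes. Irradiated mutant heads thus held the largest share of the head libraries, while the embryo libraries lay within 1 percentage point of each other. In bulk tissue, fewer cells of a type and less RNA per cell cannot be told apart.

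With 1 gene per protein, levels were narrow. The 78 genes had a median of 739 FPKM in irradiated mutant heads, 672 in mock mutant heads, 623 in irradiated wild-type heads and 649 in mock wild-type heads. In irradiated mutant heads they ran between RpS21, a small-subunit protein, at 305 FPKM and RpL37a, a zinc-binding large-subunit protein, at 1463 FPKM. This span of 4.79-fold was the smallest in heads. It was 6.62-fold in mock mutant, 6.11-fold in irradiated wild-type and 5.19-fold in mock wild-type heads, and 3.65- to 6.05-fold in the embryo libraries. Embryo medians were 2101 FPKM in irradiated mutants, 1962 in mock mutants, 1951 in irradiated wild type and 2059 in mock wild type. The highest gene of all in each embryo library was RpL41, which encodes a very short peptide between the subunits, at 3614, 3487, 3477 and 3914 FPKM in the same order. Over the 78 genes, mean levels in heads and embryos were related with Pearson's r of 0.522 and Spearman's rho of 0.441. This is a description over genes measured in the same libraries, not over replicates.

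Among the genes with the highest mean levels in heads were RpL37a (1294 FPKM), RpS29 (1285), RpL41 (1264) and RpL23 (1089). In embryos the highest 5 were RpL41 (3623 FPKM), RpL10 (2969), RpS3A (2950), RpL15 (2714) and RpS16 (2560). Of these, RpL41 was near the top in both tissues. Second paralogues and assembly-factor relatives made up the lowest counted genes, among them RpS28a (0.970 FPKM), RpS15Ab (66.3), RpLP0-like (70.8) and RpL7-like (77.6) in heads. In embryos the lowest were RpL22-like (0.603 FPKM), RpS28a (2.46), RpS10a (3.49), RpL37b (4.26) and RpS19b (4.86).

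**Figure D1:**
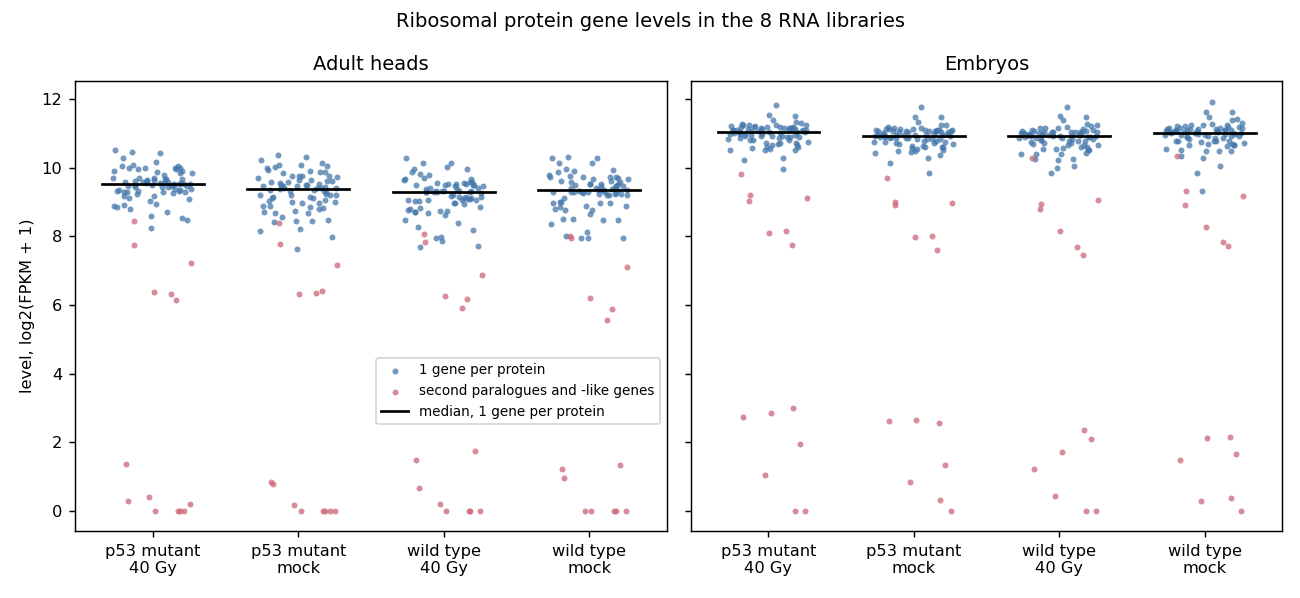
Level of each of the 92 ribosomal protein genes, as log2(FPKM + 1) on the vertical axis, in the 4 head libraries (left) and the 4 embryo libraries (right). Each point is 1 gene, blue for the 78 genes that stand for 1 protein each and red for the 14 others, and the black line is the median of the blue points. The blue points form 1 narrow band per library, higher in embryos than in heads.

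Of the comparisons within a tissue, the set's median lay farthest from 0 between the strains in irradiated heads. Of 86 genes, 81 were higher in the irradiated mutant than in the irradiated wild type, with a median difference of 0.27 (1.21-fold), or 75 of 86 with 0.19 after scaling to the same summed FPKM. Over all counted genes the median was −0.02 and 47.7% were higher. Over the 1148 other genes with a mean of 100 FPKM or more in heads, a comparison chosen after the data were seen, the median was 0.03 and 55% were higher. Over the 93 others at 500 FPKM or more, nearer to the set's own levels, the median was 0.04. The median of the set was thus above those of all 3. Its interquartile range was 0.19, against 0.46 for all counted genes, whose median level was far lower (21.3 FPKM in irradiated mutant heads). In the same comparison neuron markers had a median of −0.30, with 5 of 10 lower by the limit (19.8% of all counted genes were). Glia markers had a median of −0.31, with 3 of 7 lower, and none of either list was higher (17.7%). The part of tissue makeup in the set's difference was not tested.

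In that comparison 30 of 86 genes were higher by the limit (17.7% of all counted genes were) and 1 was lower (19.8%). Scaling each library to the same summed FPKM left 17 higher and 1 lower. By subunit, 19 of 51 large-subunit genes and 11 of 35 small-subunit genes were past the limit upward, with medians of 0.30 and 0.24. RpL23A, RpS18 and RpS9 were higher by 2-fold or more (3.79% of all counted genes were). RpS28a, a paralogue listed at 0 in the mutant, was the lower one, with a difference past −1 (4.31% of all counted genes had one). It reached 1 FPKM in wild-type heads alone, so its direction is set by the filter. RpS14b, RpL7A and RpLP0-like had differences of −0.09, −0.05 and −0.05.

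In mock heads the set lay close to all genes. The median difference between mock mutant and mock wild type was 0.04 over 86 genes (0.03 over all counted genes), with 50 genes higher (53.3% of all counted genes were). The count at the limit was 9 higher (20% of all counted genes) and 8 lower (17.2%), or 7 higher and 10 lower after scaling to the same sum. Both shares were below those of all genes. The 9 higher genes were RpL23A, RpS15Ab, RpS18, RpS9, RpLP0-like, RpL24-like, RpS15Aa, RpL40 and RpS20, with RpL23A past 2-fold (4.33% of all counted genes). Among the 8 lower ones were RpS28a (listed at 0 in the mutant, with a difference past −1, as for 3.26% of all counted genes), RpL35A, RpLP2, RpS26, RpL34b, RpL13A and RpL24. Past the limit, the strains' mock heads thus differed in single genes in both directions, and the irradiated heads in 31 genes, 30 of them upward.

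After radiation the set lay on opposite sides of its mock level in the 2 strains' heads. In mutant heads 62 of 86 genes were higher after 40 Gy (41.8% of all counted genes were), with a median of 0.10. Over all counted genes that median was −0.04, and over the other genes at 100 FPKM or more −0.03. In wild-type heads 63 of 86 were lower (47.5% of all counted genes were), with a median of −0.08. The median of all counted genes was 0.01 there, and that of the others at 100 FPKM or more −0.03. Other genes at 500 FPKM or more, 93 in number, had medians of −0.01 in the mutant and −0.10 in the wild type, so the wild-type value lay close to that of the most abundant other genes and the mutant value did not. The difference between the 2 responses, mutant minus wild type, had a median of 0.24 over the set, with 73 of 86 genes above 0 (42.6% of all counted genes were). It was 0.08 over those 93 genes and −0.04 over all counted genes. At the counting limit, 27 genes had the larger response in the mutant (10.4% of all counted genes) and 3 the smaller (14.2%), with RpLP2 past 2-fold (1.27%). These comparisons share no library between mutant and wild type: 45 of 86 genes were below 0 in wild type and above 0 in the mutant, as were 20.1% of all counted genes.

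Few genes in wild-type heads reached the limit after radiation. RpS28a and RpS15Ab were higher (2 genes, against 8.35% of all counted genes) and RpS18 was lower (1 gene, against 4.69%), or 4 were higher and none lower after scaling to the same sum. RpS28a had 2.33 FPKM in irradiated and 1.55 FPKM in mock wild-type heads, which is close to the lowest level counted. RpS15Ab, the second gene of a small-subunit protein, had 58.8 FPKM in irradiated and 46.6 FPKM in mock wild-type heads. RpS18 had 205 FPKM in irradiated and 257 FPKM in mock wild-type heads, a difference of −0.33, and RpLP2 had one of −0.30. After RpS28a and RpS15Ab, RpLP0-like had the highest difference, 0.31.

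**Figure D2:**
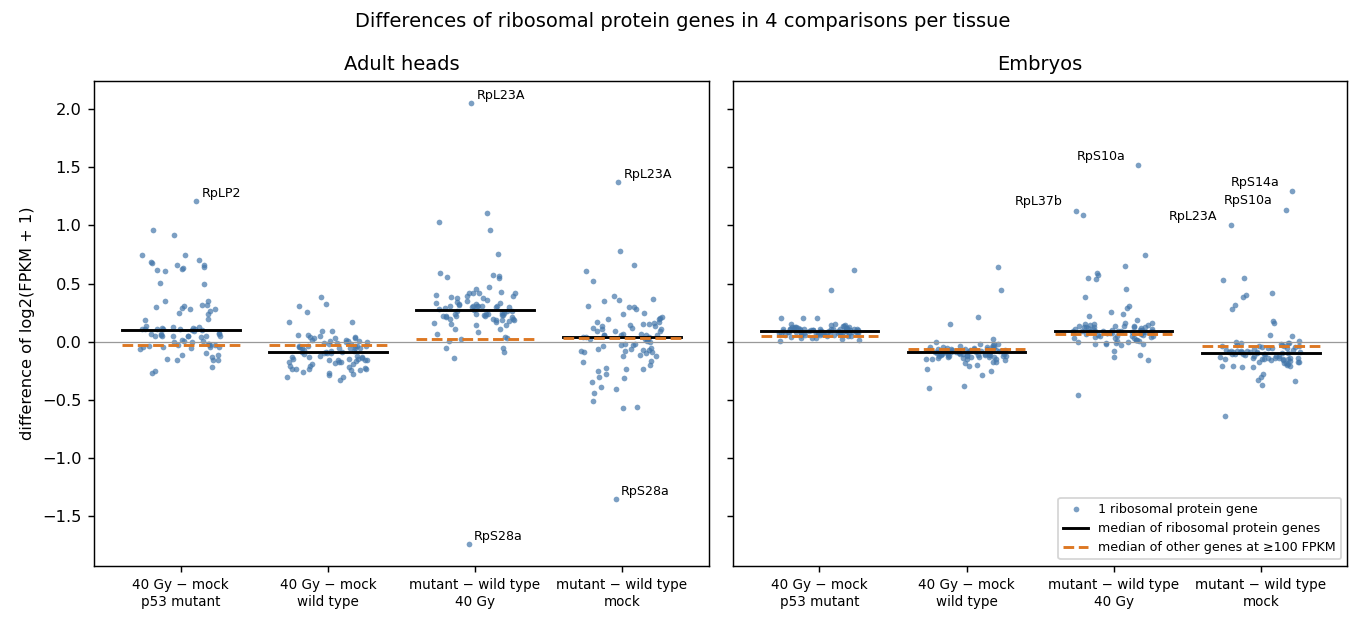
Differences of log2(FPKM + 1) for the counted ribosomal protein genes in heads (left, 86 genes) and embryos (right, 90 genes), for irradiated minus mock in each strain and mutant minus wild type under each treatment. Points are genes, black lines the medians of the set and dashed orange lines the medians of other genes with a mean of 100 FPKM or more. In mutant minus wild type of irradiated heads the black line, at 0.27, lies well above the orange one, at 0.03, whereas in embryos the lines lie close together.

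The response of mutant heads was uneven within the set. After 40 Gy 19 of 86 genes were higher by the limit (7.23% of all counted genes and 6.27% of the others at 100 FPKM or more were) and none was lower (6.03% of all counted genes). Of the 19, 14 encode large-subunit proteins (of 51) and 5 small-subunit proteins (of 35). Among them were RpL13, RpL13A, RpL14, RpL17, RpL18, RpL22, RpL23, RpL23A, RpL24, RpL34b, RpL35A, RpL37A, RpL4, RpLP2, RpS10b, RpS19a, RpS21 and RpS26. The interquartile range of the set was 0.33, wider than the 0.24 of all counted genes. No gene of the set was higher by the limit in both strains' responses (1.37% of all counted genes were).

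RpLP2, a protein of the acidic stalk that recruits translation factors to the large subunit, stood farthest out and was the only gene past 2-fold (0.637% of all counted genes were). It had 1060 FPKM in irradiated and 457 FPKM in mock mutant heads, and 545 FPKM in irradiated and 674 FPKM in mock wild-type heads. The mutant ratio was 2.32 (95% counting interval 2.21 to 2.43) and the wild-type ratio 0.809 (0.771 to 0.850). Its stalk partner RpLP1 had 709 and 569 FPKM in irradiated and mock mutant heads, and the stalk base RpLP0 had 691 and 556 FPKM. In irradiated and mock wild-type heads RpLP1 had 527 and 557 FPKM, and RpLP0 had 563 and 655 FPKM. All 3 stalk genes were thus highest in irradiated mutant heads, and RpLP2 had the widest gap. The same library was highest for 60 of the 86 counted genes of the set (23% of all counted genes), so this place is not particular to the stalk.

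RpL34b and RpL13A, both of the large subunit, came next. RpL34b had 578 FPKM in irradiated and 297 FPKM in mock mutant heads, and 392 and 404 FPKM in irradiated and mock wild-type heads. RpL13A had 1018 FPKM in irradiated and 538 FPKM in mock mutant heads, and 763 and 714 FPKM in irradiated and mock wild-type heads. Like RpLP2, each had its lowest level in mock mutants and its highest in irradiated mutants, with the wild-type libraries between. RpL35A followed this order too, with 630 and 409 FPKM in irradiated and mock mutant heads and 502 and 606 FPKM in irradiated and mock wild-type heads.

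This order was common among the 19. The mock mutant library was the lowest of the 4 in 16 of them, the exceptions being RpL22, RpL23A and RpL37A. The irradiated mutant library was the highest in 18. Over all 86 genes, 60 were highest in irradiated mutant heads (23% of all counted genes) and 51 were lowest in irradiated wild-type heads (22.1%). The 19 genes were chosen by the mutant comparison, so their order within the mutant libraries describes them and supports nothing further. RpLP0-like, RpS13 and RpS15Aa had the lowest differences in mutant heads, −0.26, −0.25 and −0.21.

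**Figure D3:**
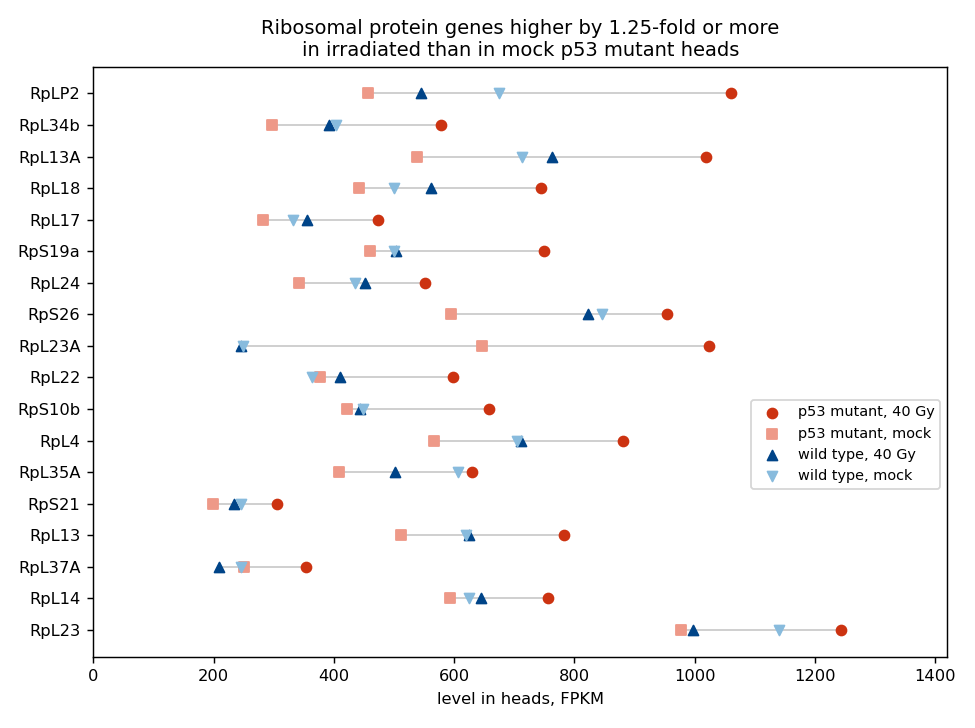
FPKM in the 4 head libraries for the 18 ribosomal protein genes above 10 FPKM that were higher by the limit in irradiated than in mock mutant heads. Each row is 1 gene, with symbols for the libraries, sorted by the mutant difference with RpLP2 (1060 FPKM irradiated, 457 FPKM mock) at the top. The dark red circles are the rightmost symbols in all rows, and the pale red squares are leftmost in all rows but those of RpL22, RpL23A and RpL37A.

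Markers of other tissues differed between the head libraries. The 10 eggshell genes listed summed to 13.3 FPKM in irradiated and 3.58 FPKM in mock mutants, and to 3.91 and 5.27 FPKM in irradiated and mock wild type, with Vm32E and Cp16 at 0 in all 4. The 8 male accessory gland genes, 5 of them counted, summed to 3.23 FPKM in irradiated and 41.6 FPKM in mock mutants, and to 0.129 and 0.080 FPKM in irradiated and mock wild type, with Acp98AB at 0 throughout. The 10 digestive enzyme genes, 8 of them counted, summed to 92.8 and 72.3 FPKM in irradiated and mock mutants. Their wild-type sums were 302 and 164 FPKM in the same order, with deltaTry at 0 in every head library. The 7 muscle genes, none at 0, summed to 1486 and 1718 FPKM in irradiated and mock mutants. In wild type they summed to 1387 and 1428 FPKM. The 12 testis genes, 6 of them counted and some at 0 in each library, summed to 81.0 and 73.3 FPKM in irradiated and mock mutants. Their wild-type sums were 4.11 and 4.86 FPKM in irradiated and mock heads. The 8 fat body genes, 6 of them counted and none at 0, summed to 6516 and 6191 FPKM in irradiated and mock mutants, and to 6994 and 8324 FPKM in irradiated and mock wild type. Between irradiated and mock heads the median of the fat body genes was 0.071 in the mutant, with 4 of 6 above 0 (41.8% of all counted genes were). In wild type it was −0.21, with none above 0 (47.5% of all counted genes were below 0). Lsp2, a storage protein gene, had 139 and 91.5 FPKM in irradiated and mock mutants, against 175 and 334 FPKM in irradiated and mock wild type. The part of these tissues in the ribosomal protein differences was not tested.

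Other genes of protein synthesis had their own values in heads. Between irradiated mutant and irradiated wild type, 26 initiation factors had a median of 0.20, with 4 higher by the limit (17.7% of all counted genes were) and none lower (19.8%). Between the mock strains their median was 0.21, with 7 higher (20%) and none lower (17.2%), so the median was alike under both treatments. The 18 ribosome biogenesis genes had a median of −0.12 between irradiated and mock mutant heads. Of them 1 was above 0 (41.8% of all counted genes were) and 3 were lower by the limit (6.03%). Nop60B, the pseudouridine synthase of ribosomal RNA, had 26.8 FPKM in irradiated and 40.9 FPKM in mock mutants. The 6 genes of RNA polymerase I and its factors had a median response of −0.34 in mutant minus wild type. None of them was above 0 (42.6% of all counted genes were). The 72 mitochondrial ribosomal protein genes had a median of 0.11 between the irradiated strains and 0.12 between the mock strains. The genes sta and Rack1 also encode small-subunit proteins but fall outside the naming rule. The gene sta, which encodes the laminin-receptor-like protein of the small subunit, had 1102 and 759 FPKM in irradiated and mock mutant heads and 842 and 838 FPKM in irradiated and mock wild type. Rack1, the scaffold protein of the small subunit, had 846 and 897 FPKM in irradiated and mock mutants and 745 and 888 FPKM in irradiated and mock wild type.

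In embryos the differences of the set were small and even. All 90 genes were higher in irradiated than in mock mutant embryos (58.1% of all counted genes were), with a median of 0.09. This was 79 of 90 with a median of 0.038 after scaling to the same summed FPKM, and 84 of 90 with a median of 0.056 after centring on all counted genes. The interquartile range was 0.04, against 0.25 over all counted genes. Those had a far lower median level, 19.6 FPKM in irradiated mutant embryos, so the 2 spreads are of genes at unlike levels. In wild-type embryos 85 of 90 were lower after radiation (45.8% of all counted genes were), with a median of −0.09, or 77 of 90 with −0.047 after scaling to the same sum. The median response of mutant minus wild type was 0.18, above 0 in 89 of 90 genes (51.9% of all counted genes), or 0.084 and 85 of 90 after scaling. The 98 other genes at 500 FPKM or more had medians of 0.06 in the mutant, −0.09 in the wild type and 0.15 for the difference. The medians over all counted genes were 0.04, 0.02 and 0.01. The set's embryo medians thus lay close to those of other abundant genes.

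Few embryo genes passed the limit after radiation. In mutants RpS28a and RpS19b were higher (2 of 90, against 8.17% of all counted genes) and none was lower (6.94%). In wild type RpS14a and RpS28a were higher (2, against 10%) and RpL37b and RpS14b were lower (2, against 8.86%). Of these genes only the RpS14 pair was above 10 FPKM. RpS27, RpL29 and RpS3A had the lowest mutant differences, 0.01, 0.02 and 0.03. Below 0 in wild type and above 0 in the mutant were 85 of 90 genes, against 22.6% of all counted genes. In the mutant 18 of 18 ribosome biogenesis genes were above 0 (58.1% of all counted genes were), with a median of 0.09.

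Between the embryo strains the set lay on opposite sides under the 2 treatments, which share no library. The 4 libraries are those of the embryo radiation comparisons above, so the 2 patterns are not independent results. Under mock treatment the mutant was lower in 75 of 90 genes (50.6% of all counted genes were), with a median of −0.09. After radiation the mutant was higher in 78 of 90 (51% of all counted genes were), with a median of 0.09. After scaling to the same summed FPKM, the mutant was lower in 66 of 90 under mock treatment (median −0.057) and higher in 61 of 90 after radiation (median 0.030). The 98 other genes at 500 FPKM or more had medians of −0.05 under mock treatment and 0.09 after radiation, close to those of the set. Of the 90 genes, 44 were highest in irradiated mutant embryos (35.5% of all counted genes) and 44 in mock wild-type embryos (22.9%).

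At the counting limit, 8 genes were higher in mock mutant than in mock wild-type embryos (21% of all counted genes) and 4 were lower (15.7%). The 8 were RpS14a, RpS10a, RpL23A, RpL22-like, RpL37b, RpS19b, RpS9 and RpS18, and all of them were also past the limit upward after radiation (16.4% of all counted genes were higher in both). RpL22-like reached 1 FPKM in irradiated mutant embryos alone, so its place among them is set by the filter. Among the 4 lower ones were RpL7A, RpS28a and RpS14b. After radiation 11 were higher (24.3%), with RpLP2, RpS15Ab and RpS21 joining the 8, and 1 was lower (21.4%). Past 2-fold were RpS14a, RpS10a and RpL23A under mock treatment (4.94%) and RpS10a, RpL37b and RpL23A after radiation (6.43%). In the difference of the responses, mutant minus wild type, 4 genes were higher by the limit and 1 was lower (10.9% of all counted genes each way). RpL37b (0.60), RpS14b (0.59) and RpLP0-like (0.43) had the highest values there and RpS14a (−0.55) the lowest. RpL7A, which hosts a snoRNA gene and encodes a large-subunit protein, had 1811 and 1697 FPKM in irradiated and mock mutant embryos, against 1981 and 2200 FPKM in irradiated and mock wild type.

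Single genes stood out from the block between the strains. RpL23A lay at least 1 log2 unit from 0 in all 4 strain comparisons, while the rare RpS28a in heads, RpS10a in embryos and RpL37b in irradiated embryos, and RpS14a in mock embryos, lay farther from the set's median. RpL23A encodes a protein beside the exit of the large subunit's peptide tunnel. It lies at 3L:1666288-1668654 on the minus strand in the dm6 annotation, which places snoRNA genes inside it. The locus deposited with its FPKM is wider, 3L:1665138-1668654. In heads RpL23A had 1023 and 646 FPKM in irradiated and mock mutants, against 246 and 248 FPKM in irradiated and mock wild type. In embryos it had 1966 and 1856 FPKM in irradiated and mock mutants, against 924 and 927 FPKM in irradiated and mock wild type. Every mutant library was thus above both wild-type libraries of its tissue.

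The ratio of mutant to wild type for RpL23A was 4.16 in irradiated heads (95% counting interval 4.00 to 4.32) and 2.60 in mock heads (2.49 to 2.72). In embryos it was 2.13 under radiation (2.09 to 2.16) and 2.00 under mock treatment (1.97 to 2.04). These intervals cover counting error only. Mutant RpL23A was near the median of the 78 proteins in embryos (1962 FPKM in mock mutants), and in wild-type irradiated embryos it was the lowest of the 78.

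RpS9 and RpS18, small-subunit proteins, were the other genes higher by the limit in the mutant in both tissues and under both treatments. In heads alone 5 of 86 genes were higher under both treatments (11.6% of all counted genes), RpL24-like and RpS15Ab besides these. All 4 comparisons together held 3 of 86 genes, against 390 of 9243 genes (4.22%) counted in both tissues. RpS9, which takes part in accurate decoding, had 628 and 552 FPKM in irradiated and mock mutant heads, against 307 and 362 FPKM in irradiated and mock wild type. In embryos it had 2466 and 2335 FPKM in irradiated and mock mutants, against 1656 and 1762 FPKM in irradiated and mock wild type. As for RpL23A, no mutant library overlapped a wild-type one of the same tissue.

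RpS18, a protein of the small subunit's head, had 442 and 407 FPKM in irradiated and mock mutant heads, against 205 and 257 FPKM in irradiated and mock wild type. In embryos it had 1963 and 1920 FPKM in irradiated and mock mutants, against 1352 and 1471 FPKM in irradiated and mock wild type. RpS9 lies at 3L:9509793-9511531 and RpS18 at 2R:20263979-20264848, so the 3 genes lie on 2 chromosomes, RpL23A and RpS9 far apart on the same arm. RpLP2 was higher in the mutant in both embryo comparisons, at 2355 and 2179 FPKM in irradiated and mock mutants against 1609 and 1745 FPKM in irradiated and mock wild type. In mock heads it was lower in the mutant, as given above.

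**Figure D4:**
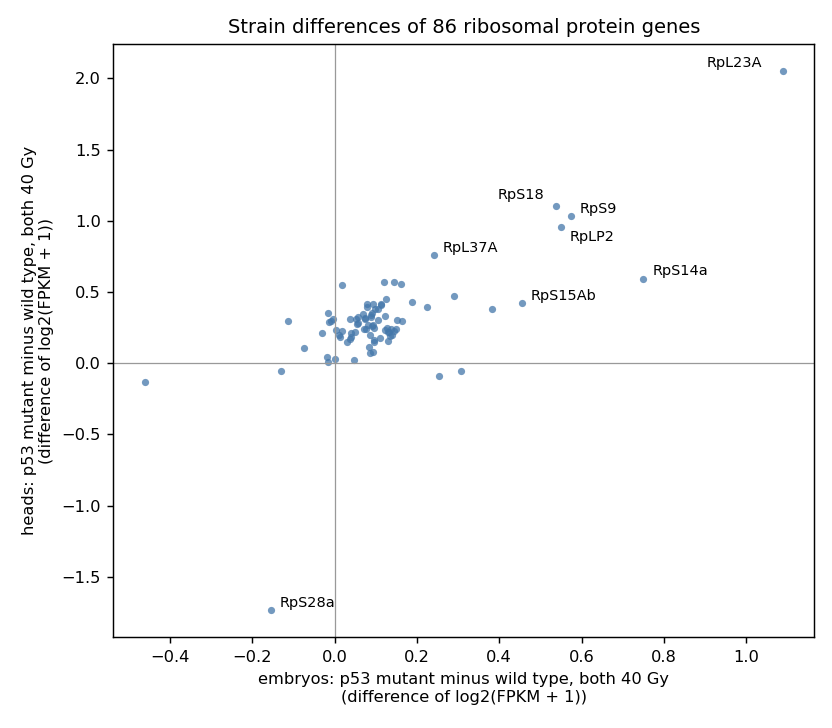
Mutant minus wild type in irradiated flies, as a difference of log2(FPKM + 1), in embryos (horizontal axis) and heads (vertical axis) for the 86 ribosomal protein genes counted in both tissues. Each point is a gene. Most points lie in 1 cloud above 0 on both axes, and RpL23A (1.09 in embryos, 2.05 in heads), RpS18, RpS9 and RpLP2 lie beyond it.

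RpS14a and RpS14b, adjacent near-identical genes on the X chromosome for a protein of the small subunit's platform, were outlying in embryos. RpS14a had 1705 and 1590 FPKM in irradiated and mock mutants, against 1013 and 647 FPKM in irradiated and mock wild type. RpS14b had 588 and 509 FPKM in irradiated and mock mutants, against 493 and 641 FPKM in irradiated and mock wild type. The split of fragments between such copies is uncertain. The sum of the pair still depends on that split in part, because the mean transcript lengths differ (760 bp for RpS14a and 578 bp for RpS14b). That sum was 2293 and 2099 FPKM in irradiated and mock mutants, against 1506 and 1288 FPKM in irradiated and mock wild type. Whether the strains differ in sequence or copy number there could not be checked. In heads the sums were closer, 596 and 569 FPKM in irradiated and mock mutants and 480 and 528 FPKM in irradiated and mock wild type.

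RpL34a made up 20.3% and 32.4% of its pair in irradiated and mock mutant heads and 22.8% and 25.3% in irradiated and mock wild-type heads. Its own level was 148 and 142 FPKM in irradiated and mock mutants and 116 and 137 FPKM in irradiated and mock wild type, while that of RpL34b was lowest in mock mutants. RpS15Ab had 79.0 and 80.7 FPKM in irradiated and mock mutant heads, against 58.8 and 46.6 FPKM in irradiated and mock wild type, beside 819 and 951 FPKM of RpS15Aa in irradiated and mock mutants and 739 and 736 FPKM in irradiated and mock wild type. In embryos RpS15Ab had 284 and 257 FPKM in irradiated and mock mutants, against 207 and 226 FPKM in irradiated and mock wild type. Its share of the pair was therefore larger in the mutant in both tissues.

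**Figure D5:**
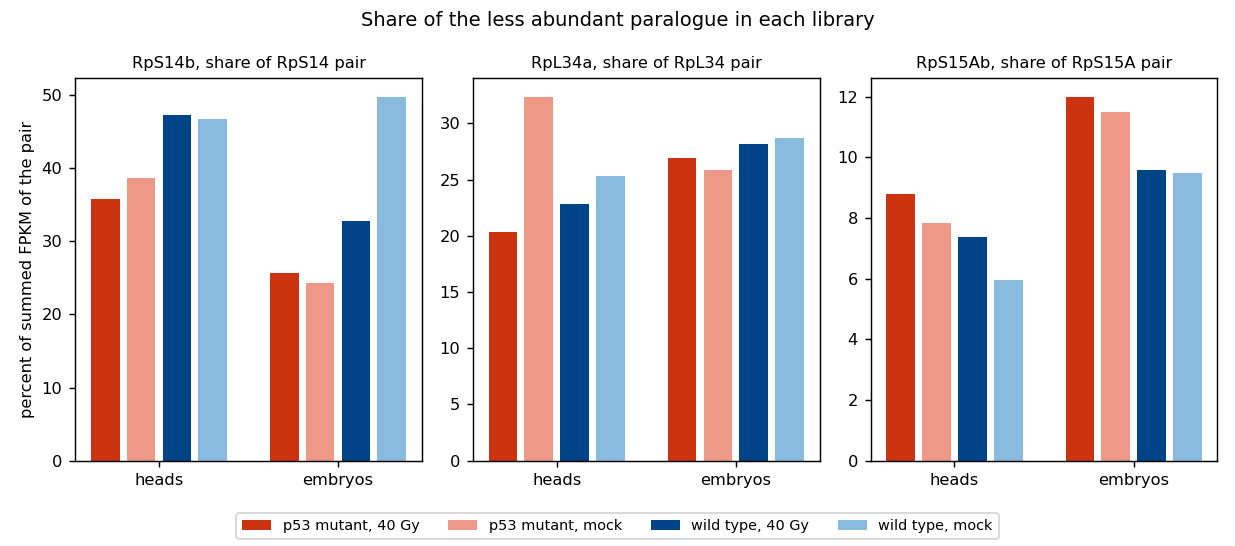
Share of the less abundant gene in 3 paralogue pairs, as percent of the pair's summed FPKM, in each head and embryo library. Bars are single libraries and each panel has its own scale from 0. RpL34a has its largest share in mock mutant heads (32.4%), and the RpS14b share rests on an uncertain split of near-identical copies.

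Several second genes were rare. RpS10a had 5.71 and 5.11 FPKM in irradiated and mock mutant embryos, against 1.34 and 1.78 FPKM in irradiated and mock wild type. RpL37b had 6.19 and 5.24 FPKM in irradiated and mock mutant embryos, against 2.29 and 3.33 FPKM in irradiated and mock wild type. RpS19b had 7.03 and 4.90 FPKM in irradiated and mock mutants, against 4.10 and 3.41 FPKM in irradiated and mock wild type. These 3 genes and RpL22-like (1.05 and 0.780 FPKM in irradiated and mock mutants, against 0.360 and 0.220 FPKM in irradiated and mock wild type) had higher levels in mutant embryos, at amounts that added under 1% to those of RpS10b, RpL37a, RpS19a and RpL22. This direction was not common to all second genes of the set.

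Germline transcripts also differed between the embryo strains. The list of 17 female germline and maternal genes, all counted, summed to 359 and 297 FPKM in irradiated and mock mutant embryos, against 238 and 176 FPKM in irradiated and mock wild type, with none at 0. Between the mock strains 11 of the 17 were higher by the limit (21% of all counted genes were) and 1 was lower (15.7%). The 12 testis genes listed, 2 of them counted and 7 at 0 in each library, summed to 45.0 and 41.2 FPKM in irradiated and mock mutants, against 5.10 and 4.44 FPKM in irradiated and mock wild type. The 10 digestive enzyme genes summed to 128 and 55.5 FPKM in irradiated and mock mutants, against 81.3 and 6.13 FPKM in irradiated and mock wild type. The part of germline or maternal RNA in the differences of these second genes was not tested.

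RpS28a was listed at 0 in both mutant head libraries, against 2.33 and 1.55 FPKM in irradiated and mock wild-type heads. In embryos it had 2.86 and 1.51 FPKM in irradiated and mock mutants and 3.30 and 2.16 FPKM in irradiated and mock wild type. The main gene, RpS28b, had 825 and 796 FPKM in irradiated and mock mutant heads, against 664 and 648 FPKM in irradiated and mock wild type. RpS28-like reached at most 0.300 FPKM in any library and RpL10Aa at most 0.144 FPKM, while RpL10Ab, the used gene of that pair, had 420 to 525 FPKM in heads.

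The assembly-factor relatives had levels of their own. RpL24-like had 350 and 338 FPKM in irradiated and mock mutant heads, against 266 and 257 FPKM in irradiated and mock wild type, a difference of 0.39 under each treatment. RpL24 itself had 552 and 342 FPKM in irradiated and mock mutant heads and 451 and 435 FPKM in irradiated and mock wild type. RpL24-like thus showed an even strain difference in heads, and RpL24 showed the pattern of the 19 genes above. In embryos RpL24-like had 523 and 479 FPKM in irradiated and mock mutants, against 448 and 480 FPKM in irradiated and mock wild type. RpL7-like was even in heads, at 82.1 and 79.0 FPKM in irradiated and mock mutants and 76.1 and 73.0 FPKM in irradiated and mock wild type. RpLP0-like had 69.5 and 83.7 FPKM in irradiated and mock mutant heads and 72.1 and 58.1 FPKM in irradiated and mock wild type, so the strains' responses had opposite signs.

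The ribosomal protein genes are spread over all arms in the dm6 annotation: 19 on 2L, 21 on 2R, 14 on 3L, 23 on 3R, 14 on X and 1 on chromosome 4, and 28 contain a snoRNA gene. Their head response in mutant minus wild type had medians of 0.14 on 2L, 0.21 on 2R, 0.32 on 3L, 0.23 on 3R and 0.23 on X. It was 0.21 for the 28 genes with a snoRNA gene inside and 0.24 for the 58 counted ones without. The median was thus above 0 on every arm with several genes, and close with and without a snoRNA gene.

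Ribosomal protein genes lay near p53 peaks in heads about as often as all counted genes did. The authors' peaks, 392 in heads and 135 in embryos, compare wild-type with p53 mutant chromatin, so a locus that differs between the strains can also give a peak. In heads 4 of 92 genes had a start site within 5 kb of a summit (5.15% of the counted genes that could be placed). In embryos none did (1.31%), the nearest summit being at 8049 bp. The 92 include genes that were not counted in a tissue, such as RpS10a in heads. RpS14b and RpS14a lay 3153 and 4309 bp from the summit of 1 peak at X:7937762-7938233, with the authors' fold of 4.46. RpS10a lay 4194 bp from that of a peak at 3R:27656823-27657071, with a fold of 2.37.

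None of RpL23A, RpS9, RpS18 and RpLP2 was among the genes near a peak, and neither were most counted genes. The regulator Xrp1 had 36.03 and 28.2 FPKM in irradiated and mock mutant embryos, against 171 and 29.3 FPKM in irradiated and mock wild type. In heads it had 432 and 380 FPKM in irradiated and mock mutants, against 457 and 407 FPKM in irradiated and mock wild type.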

How the data were processed

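RNA was measured in 8 libraries (polyA RNA, paired-end and stranded per the labels' protocols) and chromatin bound by p53 in 4 more, with no group repeated. The authors deposited 1 table per tissue with FPKM per gene and group and log2 fold changes with 1 FPKM added, per the file headers. The authors' deposited log2 columns differed from the log2 differences computed here by at most 0.000966 in heads and 0.00628 in embryos over the ribosomal protein genes. Per the submitters' processing notes, reads were handled with cutadapt, TopHat2, Bowtie2, Picard, SAMtools, Cuffdiff and MACS2 on dm6. Tool versions, the gene annotation and pooling of reads were not stated there. The deposited peak lists give the authors' fold (ratio) of wild-type over mutant chromatin, a direction read from the peak names, and −log10 p and q values. Folds were used within a list only. Near-identical copies and overlapping genes share fragments, whose split in FPKM is uncertain, and a single scale per library does not show a difference in RNA per cell.

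Differences were computed with pandas 2.3.3 and numpy 2.4.6 as log2(FPKM + 1), within a table, for genes that reached 1 FPKM in any group. With 1 library per group there was no test. Medians and counts at a difference of 0.32 (5 to 4) and at 2-fold are given beside the same over all counted genes, and the step was tested on simulated data. Depth was estimated from the value of 1 fragment in single-transcript genes of 800 to 3000 bp with the length reduced by 150 bp. With 6 different reductions the estimates were 8.88 to 15.38 M fragments (M is 1e+06) for head libraries, and 16.98 to 25.36 M for embryo libraries. The 95% intervals of ratios are exact binomial ones (scipy 1.17.1), rest on that depth and cover counting error only. Coordinates, snoRNA genes and start sites come from the Ensembl release 115 annotation of the dm6 assembly, matched by symbol, synonym and overlapping locus. There RpL37a and RpL37b are named RpL37-1 and RpL37-2, and RpL37A is a different protein.

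The genes named are p53, all paralogues and assembly-factor relatives, the 5 highest and lowest members per tissue, the 3 highest and lowest differences per comparison, members at least 1 log2 unit from the set's median and those within 5 kb of a peak. Others among the genes past the counting limit were named after their values were seen. The members and lists were chosen with earlier results of these data known. Between irradiated mutant and irradiated wild-type embryos, growth control genes had a median of −0.28 over 16 genes and genes known to respond to ribosomal protein mutation −0.25 over 8. In heads the same values were −0.14 and −0.04. Some genes that the rule names are not reported here. No sequences are shown. The alternatives tried are pseudocounts of 0.1 and 5 FPKM, no filter, centring on all genes, scaling to the same summed FPKM, 1 gene per protein and the authors' own log2 columns.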

Additional observations from a re-analysis of the deposited data

Results flagged for a closer look

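With 1 library per group, the results here have opposite signs in the groups set side by side, and the differences between them were not tested. The median of the ribosomal protein genes between irradiated and mock heads was 0.10 in the p53 mutant and −0.085 in wild type. In embryos the same medians were 0.093 in the mutant and −0.090 in wild type. Between mutant and wild-type embryos the median was 0.093 after radiation and −0.092 under mock treatment. The embryo medians by treatment and by strain come from the same 4 libraries, so they are not independent results. Between mock mutant and mock wild type the median was 0.041 in heads and −0.092 in embryos.

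In heads, mutant minus wild type passed the counting limit upward after radiation and downward under mock treatment for RpLP2, RpL34b, RpL13A and RpL35A. The share of all counted genes with this pattern was not counted, so the 4 are only described. They are also among the 19 genes higher by the limit in irradiated than in mock mutant heads, a comparison of the same mutant libraries. RpLP2 differed by 0.96 after radiation and by −0.56 under mock treatment. RpL34b differed by 0.56 after radiation and by −0.44 under mock treatment. RpL13A differed by 0.42 after radiation and by −0.41 under mock treatment. RpL35A differed by 0.33 after radiation and by −0.57 under mock treatment. All 4 are named for the large subunit, as are 51 of the 86 counted genes. In embryos none of the 4 was lower by the limit in the mutant.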

How the results depend on the processing

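No paired analysis was possible because each group has 1 library, and for the same reason no library could be left out. All 68 medians under the alternatives kept the sign of the reported one, with shifts of at most 0.0976. Centring on the median of all counted genes gave 0.14 for irradiated minus mock mutant heads, −0.11 for wild-type embryos and 0.056 for mutant embryos. Scaling each library to the same summed FPKM gave 0.19 for mutant minus wild type in irradiated heads, with 18 genes past the limit in place of 31. In embryos it gave 0.038 for irradiated minus mock in the mutant, −0.047 in wild type, 0.030 for mutant minus wild type after radiation, −0.057 under mock treatment and 0.084 for the mutant minus the wild-type response.

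The small counts at the counting limit rested largely on low or second genes. In wild-type heads RpS18, at a difference of −0.33 close to the limit, was an exception. RpS14a, the more abundant gene of its pair, was another in wild-type embryos and in the difference of the embryo responses. A pseudocount of 5 FPKM gave 0 genes in wild-type heads (3 as reported), 2 in wild-type embryos (4), 0 in mutant embryos (2) and 3 for the difference of the embryo responses (5). With 1 gene per protein the counts were 1 in wild-type heads, 1 in wild-type embryos, 0 in mutant embryos and 1 for the difference of the embryo responses. The strain counts in embryos were then 5 under mock treatment and 6 after radiation, in place of 12 each. The other 57 counts were within 1.5 times the reported ones. The authors deposited no log2 column for mutant minus wild type after radiation. Without replicates the depth sets only the counting error, and a gene listed at 0 is not shown to be absent.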
